A study of Rattus norvegicus with 18 samples.

Results

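The genes described are 7 rat genes of B cells and of their antigen receptor, out of 4736 genes that the array annotation names by a single symbol. They are Cd79b, Cd72, Cd40, Cxcr5, Ighvl1, Iglc1 and Rag1, and they were selected by their symbols, with earlier results of these data known. Counts of these genes set beside the share of all probe sets are therefore a description only. Together 8 probe sets read them, 2 for Ighvl1 and 1 for each other gene. Where a gene had 2, the leading one was chosen by its mean log2 signal over all 18 arrays, so the levels of those 2 are a description only.

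RNA came from the middle part of the femur shaft, with callus, cortical bone and marrow together, in female Sprague-Dawley rats with a closed mid-shaft fracture held by an intramedullary rod. Rats were young (6 weeks old at fracture), adult (26 weeks) or older (52 weeks), and femurs were taken with no fracture (sham surgery) and at 3 days, 1 week, 2 weeks, 4 weeks and 6 weeks after fracture. Each of the 18 arrays held RNA pooled from 2 rats, with 1 array for each age at each time. The 3 ages therefore stand in as replicates in comparisons of time, and the 6 times in comparisons of age. The p-values rest on the spread left after the terms for time and age. That spread mixes variation between pools with any difference of the time course between ages. The intact femurs were taken at the age of fracture, and the young rats of the last time were 12 weeks old, so that time after fracture and growth cannot be told apart.

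B cells arise in bone marrow, where precursors cut and join immunoglobulin gene segments with the RAG recombinase, pair a heavy chain with a surrogate and then a true light chain, and carry the finished receptor to the surface with the CD79 signalling pair. Mature B cells move to lymphoid follicles, guided by the chemokine receptor CXCR5, and are activated through CD40. Their progeny, the plasma cells, secrete the receptor as antibody, and many of them live in marrow.

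The B cell surface genes Cd79b, Cd72 and Cd40 and the immunoglobulin genes Ighvl1 and Iglc1 fell together after fracture, stayed low from 3 days to 2 weeks, and were higher again at 4 and 6 weeks. Among the lead probe sets at 3 days the deepest fall was that of Ighvl1, 19.6-fold, and the shallowest that of Cd40, 2.18-fold. The other Ighvl1 probe set fell 3.70-fold at 3 days, less than Cd72, Iglc1 and Cd79b. Rag1 and Cxcr5 lay near or below the level at which the array reads a signal. Signals have no unit beyond the array's scaling to a common mean, and values under 20 were set to 20 before log2. A probe set was called where limma's Benjamini-Hochberg adjusted p over all 8740 probe sets was below 0.05. At 3 days 6 of the 7 genes were called lower, against 20.4% of all probe sets called lower, and the 6 include Cxcr5, which is treated apart below. At 1 week 5 of 7 were called lower, against 17.8% of all probe sets, and at 2 weeks 5 of 7, against 16.8%. In the test over the 6 times 5 of 7 were called, against 36.3% of all probe sets. The median log2 change of the 7 genes was -2.67 at 3 days, -2.43 at 1 week and -2.39 at 2 weeks, and that of all probe sets was -0.08, -0.04 and -0.07 at the same times. Fitted on only the 6 arrays compared, 5 genes were called at 3 days, 1 at 1 week and 0 at 2 weeks, with the same fitted changes. In femur tissue of mixed cells, fewer B cells and less RNA per B cell cannot be told apart.

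**Figure D1:**
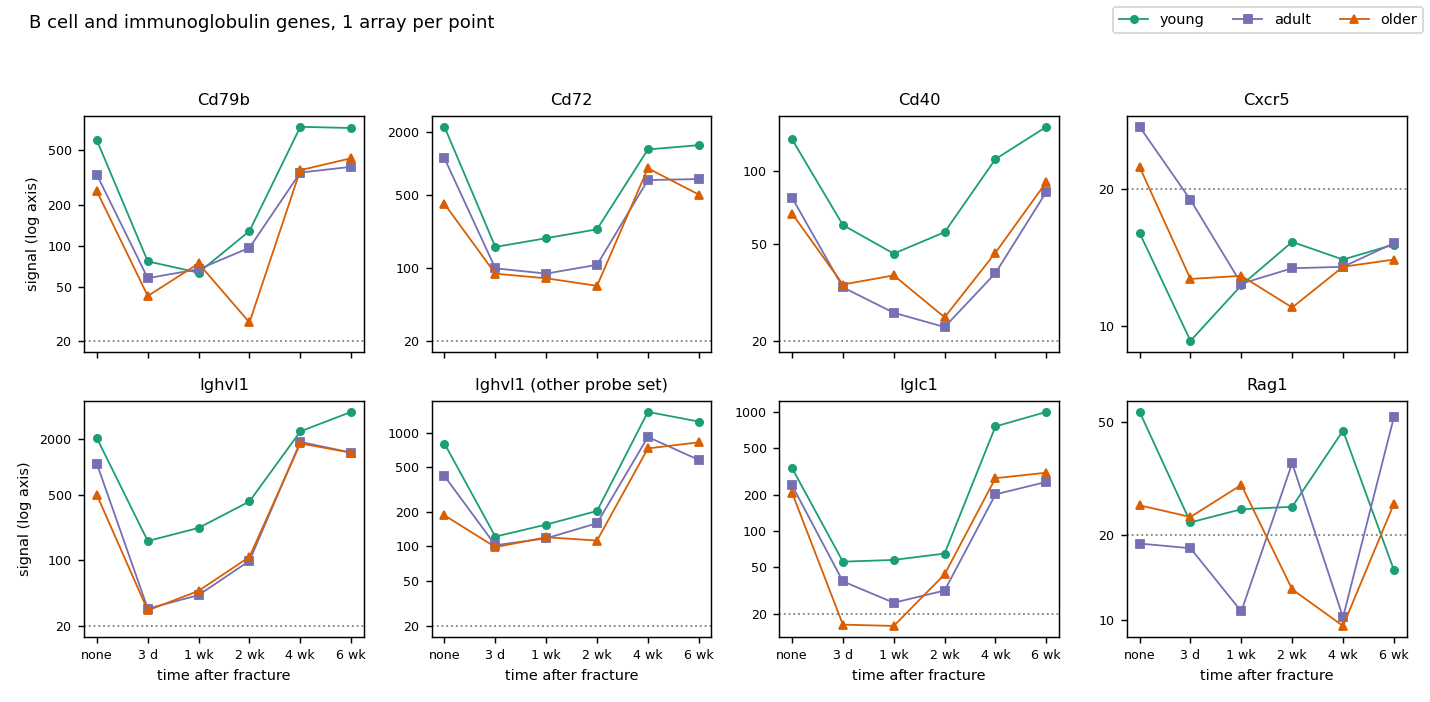
Signal on each of the 18 arrays (log axis, arbitrary array units) against time after fracture for the 7 genes and the other Ighvl1 probe set, with 1 line for each age and a dotted line at the floor of 20. Cd79b, Cd72, Ighvl1 and Iglc1 have all their 9 arrays of 3 days to 2 weeks below all 9 of the other times, while Cxcr5 lies below the floor on 16 of 18 arrays. The share of all probe sets separated in this way is not given, so the separation, here and below, is a description only.

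Cd79b encodes one chain of the CD79 pair, which passes the signal of the B cell receptor into the cell. Its signal over no fracture, 3 days, 1 week, 2 weeks, 4 weeks and 6 weeks was 591.7, 76.6, 63.3, 127.9, 743.7 and 729.1 in young rats. In adult rats it was 330.2, 57.7, 67.1, 96.4, 343.5 and 378.4. In older rats it was 250.4, 42.7, 73.9, 27.3, 357.7 and 437.4. Every array from 3 days to 2 weeks was below every array of the other times, with the highest at 127.9 and the lowest at 250.4. The mean was 59.0 ± 17.0 at 3 days and 390.8 ± 178.5 with no fracture (SD, n = 3 each), a log2 change of -2.67 ± 0.38 (SE; limma adjusted p = 0.000332). The log2 change was -2.43 at 1 week (limma adjusted p = 0.000836) and -2.39 at 2 weeks (limma adjusted p = 0.00106). Within an age, the signal at 3 days was 12.9% to 17.5% of that with no fracture.

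Cd72 encodes an inhibitory coreceptor of B cells. Its signal over the 6 times, in the same order, was 2255.5, 159, 192.9, 234.9, 1369.1 and 1505 in young rats. In adult rats it was 1126.2, 99.2, 88.3, 107.2, 696.5 and 712. In older rats it was 411.2, 88.1, 79.6, 67.4, 904.3 and 505.7. The early arrays again did not overlap the others, and the intact femur of older rats had the lowest signal among the 9 arrays of the other times. The log2 change was -3.18 ± 0.30 at 3 days (SE; limma adjusted p = 2.77e-05), -3.20 at 1 week and -3.09 at 2 weeks, or 9.09-fold, 9.17-fold and 8.51-fold lower. At 4 weeks the older rats had 219.9% of their own intact signal, while young and adult rats had 60.7% and 61.8% of theirs.

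Cd40 encodes the receptor through which helper T cells activate B cells, and macrophages and dendritic cells carry it too. Its signals over the 6 times were 134.9, 59.9, 45.7, 56, 111.9 and 151.9 in young rats. In adult rats they were 77.6, 33.2, 26.1, 22.8, 38 and 82. In older rats they were 66.8, 34.1, 37.2, 25, 46.1 and 90. At 3 days, 1 week and 2 weeks its log2 changes were the closest to 0 among the 5 genes, and its arrays of 3 days to 2 weeks overlapped those of 4 weeks, where adult rats still had 38. The log2 change was -1.12 ± 0.18 at 3 days (SE; limma adjusted p = 0.000598), -1.33 at 1 week and -1.48 at 2 weeks. With a floor of 100 in place of 20, most of its values became equal and no call remained.

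Ighvl1 is annotated in RefSeq (GRCr8) as a variable segment of the immunoglobulin heavy chain. The lead probe set gave 2021.3, 161.3, 222.9, 426.5, 2389.2 and 3857.3 over the 6 times in young rats. Adult rats gave 1073.6, 30.6, 42.7, 99.1, 1846.2 and 1417.8. Older rats gave 498.9, 29.3, 47.4, 109.3, 1776.4 and 1415.3. At each of the 3 ages its signal at 2 weeks exceeded that at 1 week, which exceeded that at 3 days, and all 9 of these arrays were below all others. The log2 change was -4.29 ± 0.39 at 3 days (SE; limma adjusted p = 2.34e-05), -3.74 at 1 week and -2.62 at 2 weeks. The other probe set also fell, within a smaller range of 98.6 to 1524.2. In older rats it had 98.6, 120.4 and 112.7 at 3 days, 1 week and 2 weeks, and its early arrays, up to 205.1, overlapped those of the other times, which began at 187.8. It had log2 changes of -1.89, -1.61 and -1.36 at 3 days, 1 week and 2 weeks. Probe sets of immunoglobulin segments can read related segments, so the values may belong to more than 1 heavy chain gene.

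Iglc1 encodes a constant region of the lambda light chain. Young rats had 338.4, 55, 56.9, 64.4, 759.2 and 1006.5 over the 6 times. Adult rats had 241.8, 37.5, 24.8, 31.4, 203 and 258.8. Older rats had 209.9, 16.2, 15.8, 43, 278.1 and 309.2, with the arrays of 3 days and 1 week below the floor. No array from 3 days to 2 weeks exceeded 64.4, and none of the other 9 was under 203. The log2 change was -2.90 ± 0.32 at 3 days (SE; limma adjusted p = 6.12e-05), -3.08 at 1 week and -2.54 at 2 weeks, and the floor makes the first and the second smaller than the signals themselves.

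**Figure D2:**
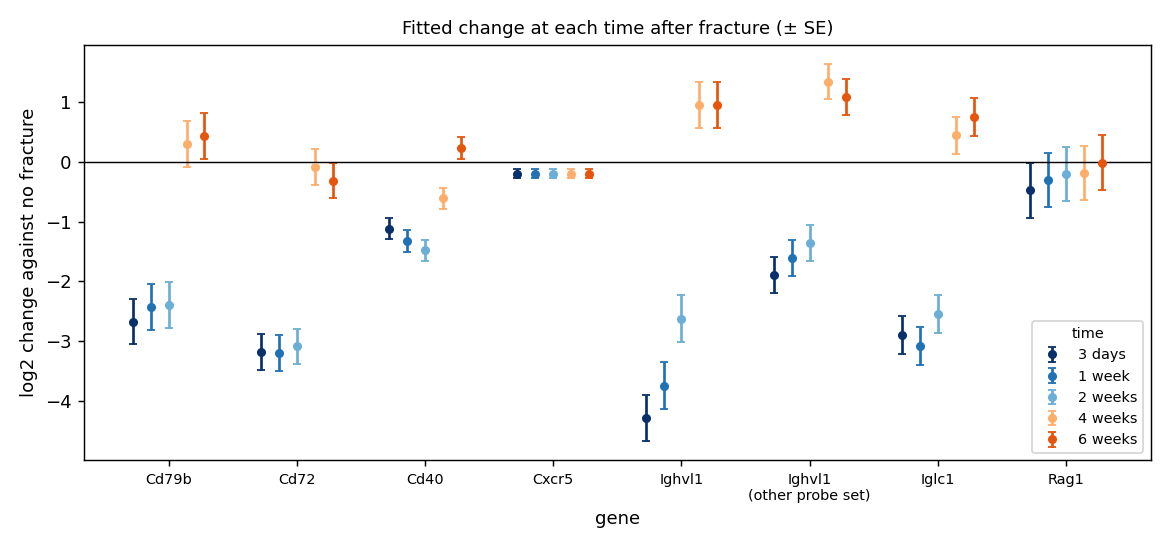
Fitted log2 change against no fracture (± SE, limma) at each of the 5 times after fracture for the 8 probe sets. Changes at 3 days, 1 week and 2 weeks lie between -1.12 and -4.29 for the lead probe sets of Cd79b, Cd72, Cd40, Ighvl1 and Iglc1, while those of Cxcr5 all equal -0.20, because every fractured femur was set to the floor.

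Rag1, the catalytic part of the recombinase that joins immunoglobulin segments, was not called at any time. Its signals ran between 9.5 and 54.4, with 7 of 18 arrays below the floor. The highest were 54.4 in the intact femur of young rats and 52.1 in adult rats at 6 weeks, and the log2 change at 3 days was -0.48 ± 0.45 (SE; limma adjusted p = 0.445). Cxcr5 had signals between 9.3 and 27.3 and exceeded the floor only in the intact femurs of adult (27.3) and older (22.3) rats, the intact young femur having 16. Its call at 3 days (log2 change -0.20, limma adjusted p = 0.0469) rests on those 2 arrays, and without the adult arrays the adjusted p was 0.237. For both genes a difference was not detectable near the floor.

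The return was tested as 4 and 6 weeks against 1 and 2 weeks. All of Cd79b, Cd72, Cd40, Ighvl1 and Iglc1 rose, 5 of 7 genes against 6.11% of all probe sets called higher. Ighvl1 averaged 2117.0 ± 924.5 at 4 and 6 weeks and 158.0 ± 146.7 at 1 and 2 weeks (SD over all ages and both times, n = 6 each). In the log2 fit it was 17.5-fold higher (limma adjusted p = 3.32e-05). Fold changes throughout come from that fit, so they can differ from the ratio of printed means. Iglc1 was 10.6-fold higher (limma adjusted p = 3.32e-05), Cd72 was 7.67-fold higher (5.1e-05), Cd79b was 6.86-fold higher (0.000189) and Cd40 was 2.32-fold higher (0.000224). The 5 genes were called in this comparison also without any 1 age and with the ratio of 3' to 5' beta-actin signal as a covariate.

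Against no fracture, 1 of the 7 genes, Cd40, was called lower at 4 weeks (log2 change -0.61 ± 0.18 SE, limma adjusted p = 0.0331), against 9.7% of all probe sets called lower. That call was lost without the adult or the older arrays (adjusted p = 0.418 and 0.189). At 6 weeks 0 of 7 were called by limma, against 15.4% of all probe sets called either way. The lead probe set of Ighvl1 had 1.93-fold the intact signal at 4 weeks (limma adjusted p = 0.107) and 1.93-fold at 6 weeks (0.13). The gene called at 4 weeks depended on the scale, since with log2(signal + 50) Ighvl1 was called higher (limma adjusted p = 0.0201) and Cd40 was not (0.0768). Among probe sets with a mean signal of 200 or more, which leaves out Cd40, Ighvl1 was called at 4 weeks too (0.047), and so it was without the young rats (0.0341). Its other probe set was higher at both times, with 1056.5 ± 416.0 at 4 weeks and 468.7 ± 310.6 with no fracture (SD, n = 3 each; log2 change 1.34, limma adjusted p = 0.0114) and a log2 change of 1.08 at 6 weeks (adjusted p = 0.034). At 6 weeks Cd79b stood at 114.6% to 174.7% of the intact signal of the same age, Iglc1 at 107.0% to 297.4%, Cd40 at 105.7% to 134.7%, Ighvl1 at 132.1% to 283.7% and Cd72 at 63.2% to 123.0%.

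Over the 6 times 4 of the 7 genes were called lower in older than in young rats, against 0.24% of all probe sets called lower. They were Ighvl1 by its lead probe set (3.38-fold lower, limma adjusted p = 0.0341), Cd72 (2.69-fold lower, 0.0309), Iglc1 (2.35-fold lower, 0.0456) and Cd40 (1.85-fold lower, 0.0307). The other Ighvl1 probe set was 1.85-fold lower and not called (limma adjusted p = 0.109). Of the 8 kappa constant region probe sets described below, 0 were called either way, with a median log2 difference of -0.37. Cd79b was 1.97-fold lower and not called (limma adjusted p = 0.14). For Cd72, Cd40, Ighvl1 and Iglc1 the older rats were below the young at all 6 times, and so were the adult rats. For Cd79b this held at 5 times, and at 1 week the order was reversed, with 73.9 in older, 67.1 in adult and 63.3 in young rats. The calls of age were fragile, since leaving out the arrays of any 1 time left between 0 and 2 of the 4 called. None was called without the arrays of 3 days, of 2 weeks or of 6 weeks, or with a floor of 100, and the fitted changes stayed negative in each of these fits. With the ratio of 3' to 5' beta-actin signal as a covariate, Ighvl1 was called and Cd40, Cd72 and Iglc1 were not. The median log2 difference of older against young rats was -1.85 for 4 neutrophil and -1.02 for 5 erythroid markers, 0 of them called by limma, beside -0.98 for the 7 genes and -0.01 for all probe sets. The part of these cells in the age difference was not tested.

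In adult against young rats 1 of 7 genes was called lower, Cd40 (log2 change -1.03, limma adjusted p = 0.0322), against 0.0458% of all probe sets. Ighvl1 had a log2 change of -1.60 (limma adjusted p = 0.0899), Iglc1 of -1.19 (0.128), and Cd72 averaged 471.6 ± 437.1 in adult and 952.7 ± 883.0 in young rats (SD, n = 6 each; 0.159). The Cd40 call was lost without the arrays of any 1 time after fracture. With the ages fitted within a phase of healing, 0 of 7 were called in older against young rats at 1 and 2 weeks, where 0% of all probe sets were called, and 0 of 7 at 4 and 6 weeks, where 1.24% were called. At 4 and 6 weeks the log2 differences of older against young rats were -1.58 for Iglc1 (limma adjusted p = 0.0695), -1.09 for Cd72, -1.02 for Cd40, -0.94 for Ighvl1 and -0.90 for Cd79b. Iglc1 averaged 293.7 ± 22.0 in older and 882.9 ± 174.9 in young rats there (SD, n = 2 each). Whether the age difference departed from that with no fracture was also tested, and among the 7 genes Cxcr5 alone was called, in both phases, against 2.22% of all probe sets at 1 and 2 weeks and 3.02% at 4 and 6 weeks. Its values there are the floor itself in every fractured femur.

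**Figure D3:**
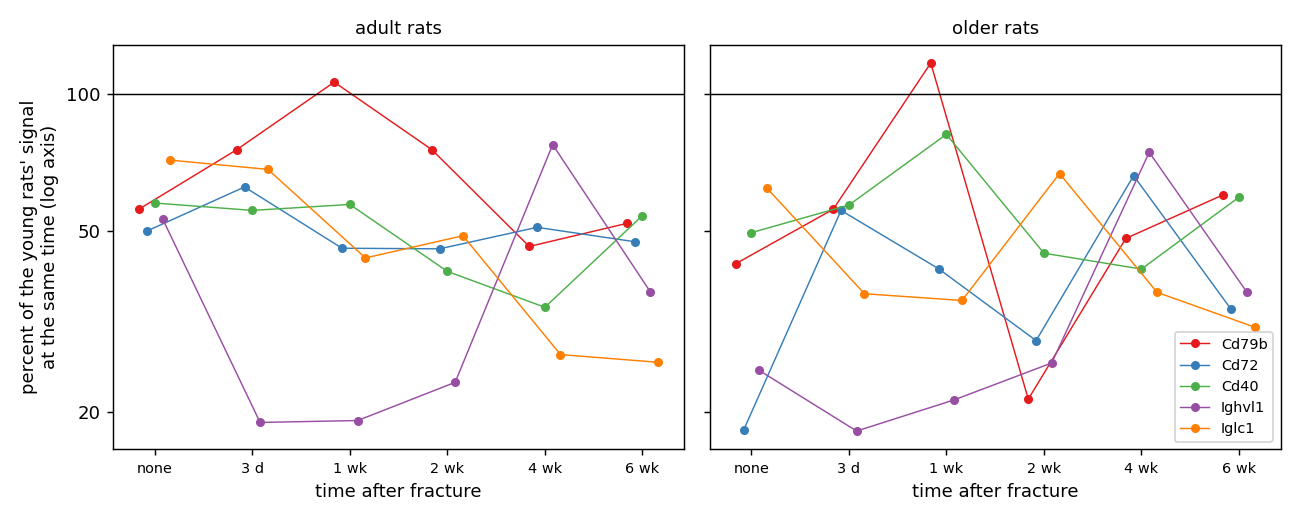
Signal of adult rats and of older rats as a percent of the young rats' signal at the same time (log axis, values under 20 set to 20) for Cd79b, Cd72, Cd40, Ighvl1 and Iglc1. Nearly all points lie below 100%, the exceptions being Cd79b at 1 week with 106.0% in adult and 116.7% in older rats.

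The intact femur showed a wide age difference in Cd72, with 411.2 in older rats and 2255.5 in young rats, so that the older femur held 18.2% of the young signal. For the lead probe set of Ighvl1 the older share was 24.7% with no fracture, 18.2% at 3 days and 74.4% at 4 weeks. The other Ighvl1 probe set had 23.4%, 80.8% and 47.7% at the same times, so the course after fracture differed between them. For Iglc1 the older share was 62.0% with no fracture and 30.7% at 6 weeks. These are single arrays, and no test was made within a time.

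Other immunoglobulin probe sets were collected after their values had been seen, by symbol or by the descriptions in the study's list of probe sets. They came to 18 probe sets, of which 8 read a kappa constant region. Those 8 are of a type that reads several related sequences, and their pairwise correlations over 18 arrays were between 0.971 and 0.998, so they are not 8 independent readings. All 8 were called lower at 3 days, with log2 changes between -7.50 and -4.48 (limma adjusted p at most 9.79e-05), and all 8 at 1 and 2 weeks. Their median signal at 3 days was 60.5, 18.1 and 25.9 in young, adult and older rats, against 1001, 3347 and 3777 with no fracture. At 6 weeks it was 4557, 1451 and 3447 at the same ages, and none of the 8 was called against no fracture.

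Another of the 18 reads a rearranged heavy chain of gamma-2a, an IgG class that B cells switch to after activation. The intact femur gave 10207.1 in older and 7158.7 in adult rats, and 36.3 in young rats, each a single array of 2 pooled rats. From 3 days to 2 weeks all 9 arrays lay between 4 and 35.2, and 8 of them were below the floor. At 4 weeks the signal was 2382.7, 808.4 and 2402.1 in young, adult and older rats, and at 6 weeks it was 4953, 1549.3 and 4181.5 at the same ages. At both times the older rats were below and the young rats above their own intact femur, and this contrast turns on the 1 intact array of each age. The young rats of 4 and 6 weeks were 10 and 12 weeks old when the femurs were taken. On these intact arrays the age order was opposite to that of Ighvl1 and Iglc1.

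The IgM light chain probe set had 147.8, 74.5 and 48.2 in young, adult and older rats at 3 days, against 1773.9, 2671 and 3610.6 with no fracture (log2 change -4.99, limma adjusted p = 4.57e-05). Igll1 encodes a part of the surrogate light chain that precursor B cells use. Its signal was 142, 149.9 and 210.4 in young, adult and older rats at 3 days, against 635.1, 635.6 and 341.1 with no fracture (log2 change -1.65, limma adjusted p = 0.00137). It was above the floor on every array. At 6 weeks its log2 change was 0.12 (limma adjusted p = 0.876).

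**Figure D4:**
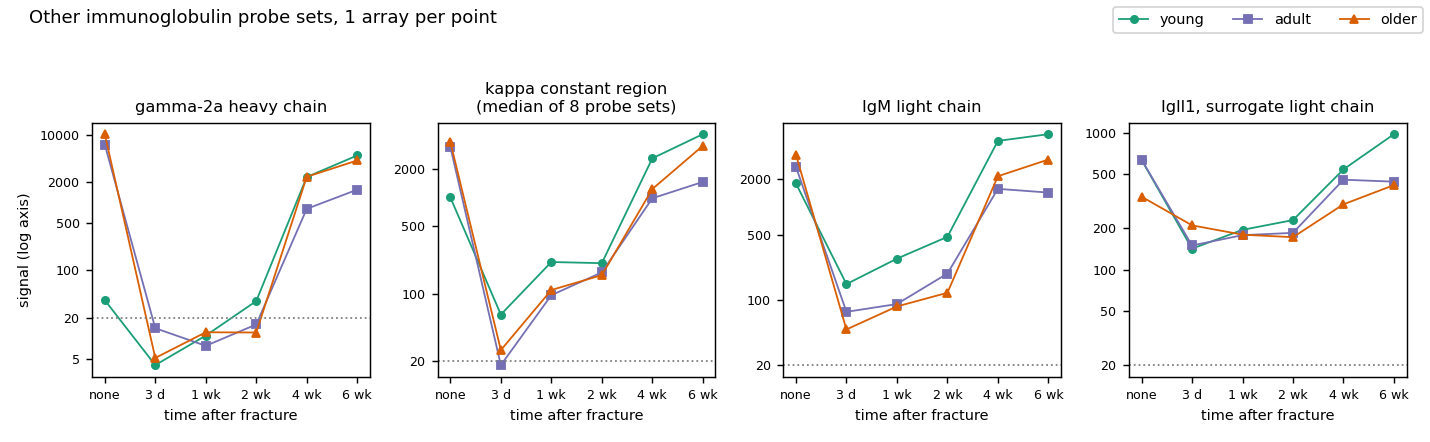
Signal on each array (log axis) against time after fracture for the gamma-2a heavy chain, the median of 8 kappa constant region probe sets, the IgM light chain and Igll1, with 1 line for each age and a dotted line at the floor of 20. With no fracture the gamma-2a signal is 36.3 in young rats, against 7158.7 in adults and 10207.1 in the older group, and all 3 ages are within the low range from 3 days to 2 weeks.

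Among the receptor complex and coreceptor genes, 11 were measured beside Cd79b and Cd72. At 3 days 4 of them fell and 3 rose, against 20.4% of all probe sets called lower and 18.9% called higher, and their median log2 change was -0.09 against -0.08 over all probe sets. Ptpn6, the phosphatase SHP-1 that inhibitory receptors recruit, fell 4.38-fold (limma adjusted p = 8.03e-06). Cd24, a surface protein of early B cells, fell 3.43-fold, Ptprc, the CD45 phosphatase of all white cells, fell 3.30-fold, and Cd37, a tetraspanin of mature B cells, fell 3.05-fold. Cd81, Cd9 and Pecam1, which many other cell types carry, rose. Cells other than B cells may have a part in the falls as well, and neither was tested. Cd37 and Cd24 were not called at 4 or 6 weeks, while Ptpn6 was still 2.08-fold lower at 6 weeks (limma adjusted p = 0.00186).

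Of 13 measured genes of receptor signalling, 8 fell and 1 rose at 3 days, against 20.4% of all probe sets called lower and 18.9% called higher, with a median log2 change of -0.99 against -0.08 over all probe sets. The kinase Prkcb, which links the receptor to NF-kappaB, fell 6.89-fold. Syk, a kinase that binds the CD79 pair, fell 5.71-fold to 285.0 ± 117.1 at 3 days, against 1559.2 ± 281.8 with no fracture (SD, n = 3 each; limma adjusted p = 2.89e-05). Pik3cd and the phospholipase Plcg2 fell 3.54-fold and 2.64-fold. At 6 weeks 4 of the 13 were lower, Pik3cd (2.52-fold), Sos1 (2.25-fold), Prkcb (2.06-fold) and Grb2 (1.42-fold), against 7.11% of all probe sets called lower. The kinases Fyn (1.72-fold) and Lyn (1.52-fold) were higher, against 8.34% called higher. Many of these enzymes also serve myeloid cells.

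Of 14 measured genes of rearrangement and the early B lineage beside Rag1, 4 fell and 0 rose at 3 days in limma, against 20.4% of all probe sets called lower, a share not far from that of the list. Their median log2 change was -0.46 against -0.08 over all probe sets. Lig4, the ligase that seals joined segments, fell 4.50-fold to between 125.9 and 208.5, against 581.4 to 1161.8 with no fracture (limma adjusted p = 0.000207). Hmgb2, a chromatin protein that aids the recombinase and is abundant in dividing cells, fell 4.26-fold. Foxo1, a transcription factor of the early lineage, fell 1.94-fold. Lig4 had a fitted 0.846-fold of the intact signal at 6 weeks and was not called (limma adjusted p = 0.645).

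The 14 measured genes of activation and follicles beside Cd40 and Cxcr5 went both ways, with 3 higher and 1 lower at 3 days, against 18.9% of all probe sets called higher and 20.4% called lower. Their median log2 change was -0.12 against -0.08 over all probe sets. Cxcl13, the ligand of CXCR5, rose to 331.5, 347.7 and 430.8 in young, adult and older rats at 3 days, against 44.4, 78.4 and 49.3 with no fracture, 6.61-fold higher (limma adjusted p = 0.000425). It was still 2.73-fold higher at 6 weeks (limma adjusted p = 0.0359). Il6, a cytokine of inflammation that also sustains plasma cells, rose to 747.9 ± 444.1 at 3 days (SD, n = 3), against signals below the floor in all 3 intact femurs, and Il10 fell 1.79-fold. Il4r, the receptor chain for interleukin-4, was 2.05-fold higher (limma adjusted p = 0.00225).

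The 7 measured genes of plasma cells and secretion had 3 higher and 2 lower at 3 days, against 18.9% of all probe sets called higher and 20.4% called lower. The higher ones were Sdc1, a surface proteoglycan of plasma cells and of many other cells (4.79-fold, limma adjusted p = 0.000148), and Pdia4 and Hspa5, which fold proteins in every secretory cell. The lower ones were Pim1, a kinase, with 18.4, 25.6 and 10 in young, adult and older rats at 3 days, against 35.4, 172.7 and 46.6 with no fracture (limma adjusted p = 0.0146), and Il6r (1.58-fold lower, 0.0145). Pou2f1, the transcription factor Oct-1, was called only at 6 weeks, 2.34-fold lower (limma adjusted p = 0.0304). Of the 9 MHC class II genes, through which B cells, macrophages and dendritic cells present antigen, none fell at any time. At 4 weeks 4 of them were higher, against 11.5% of all probe sets called higher, with a median log2 change of 0.64 against -0.03 over all probe sets. They were Cd74, RT1-Bb (2.64-fold), RT1-Db1 (2.41-fold) and RT1-Da (1.55-fold). Cd74, the invariant chain, had 5490.4 ± 1132.7 at 4 weeks and 2146.3 ± 149.4 with no fracture (SD, n = 3 each; limma adjusted p = 0.00162). At 3 days Cd74 had 1.41-fold the intact signal (limma adjusted p = 0.0589).

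Markers of other cells of the femur were read on the same arrays. Of 10 genes listed as B cell markers 3 had a probe set with that single symbol, Cd79b, Cd72 and Cxcr5, and the other 7 had none. The kappa constant region probe sets above carry no such symbol and are not in the sum. All 3 markers are among the genes described above, so their sum is not a separate reading of B cells. The summed signal of the 3 ran between 143.5 and 244.9 at 3 days, against 683.9 to 2863.2 with no fracture. All 4 neutrophil markers fell at 3 days, their sum running between 1000.2 and 13899.2, against 40164.5 to 52678.6, and all 5 erythroid markers fell, their sum running between 4870.6 and 11447.8, against 45350.4 to 98024. Of 11 T and killer cell markers 4 fell and 0 rose at 3 days in limma, against 20.4% of all probe sets called lower, and their median log2 change was -0.22 against -0.08 over all probe sets, with a sum of 851.4 to 953.6, against 1339.7 to 1466. Of 3 macrophage markers, Cd14 rose 3.19-fold, Lyz2 fell 1.72-fold and Csf1r was not called. All 6 skeletal muscle markers fell at 3 days (median log2 change -2.81), and 3 of 6 markers of cell division fell (median -0.98). These falls, and those of the neutrophil and erythroid markers, stand against 20.4% of all probe sets called lower. Of 5 bone and cartilage markers 2 rose and 0 fell in limma (median 2.43), against 18.9% of all probe sets called higher. No measured marker of the B cell, neutrophil, erythroid and T and killer cell lists was below the floor on all 18 arrays. Cxcr5 was below it on 16 of 18, however, and only 5 of the 11 T and killer cell markers were never below it. The part of these cells in the results above was not tested.

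The return of the B cell markers can be set beside that of the other lists. At 6 weeks the summed B cell markers had 78.6%, 74.5% and 139.9% of the intact signal in young, adult and older rats. Cd72 supplied most of this sum, 2255.5 of 2863.2 in the young intact femur, while Cd79b alone stood at 114.6% to 174.7%. The erythroid sum had 124.2%, 37.2% and 50.6%, and the neutrophil sum had 69.6%, 19.8% and 14.4% at the same ages. The T and killer cell sum, which had fallen less, had 116.9%, 96.1% and 130.8%. A return near the intact level was thus not particular to the B cell markers. At 6 weeks Defa5 and Lcn2 among the neutrophil markers and Epor among the erythroid ones were still called lower, while 0 of the 7 B cell and immunoglobulin genes were called by limma. The difference between the lists was not tested. The ratio of 3' to 5' beta-actin signal, a sign of RNA quality, was 1.48 to 1.90 from 3 days to 4 weeks and 1.89 to 2.72 at 6 weeks, against 2.10 to 2.61 with no fracture. With this ratio as a covariate 5, 5 and 4 of the 7 genes were still called at 3 days, 1 week and 2 weeks. The share of all probe sets called in that fit is not given, so these counts are a description only.

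**Figure D5:**
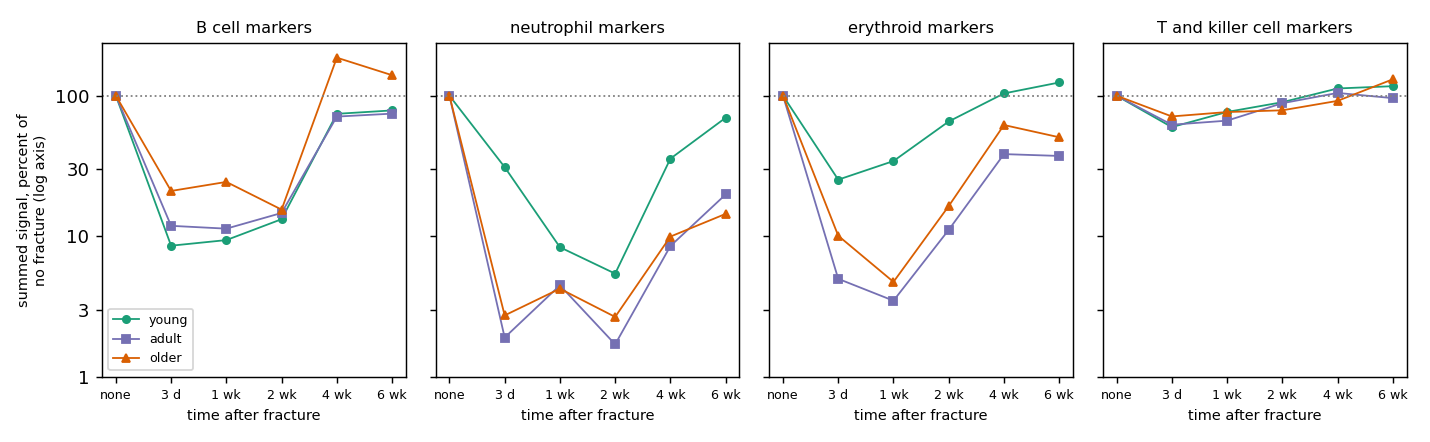
Summed signal of each marker list as a percent of the intact femur of the same age (log axis) against time after fracture, for B cell (3 genes), neutrophil (4), erythroid (5) and T and killer cell (11) markers, with 1 line for each age. At 6 weeks the B cell sum is at 74.5% to 139.9%, the T and killer cell sum at 96.1% to 130.8% and the neutrophil sum at 14.4% to 69.6% of the intact femur.

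Over the 18 arrays the log2 signals of Cd79b, Cd72, Ighvl1 and Iglc1 correlated with each other at Pearson r between 0.924 and 0.955, over arrays that share the same fracture times. Cd40 correlated with these 4 at 0.792 to 0.852, and Rag1 at 0.269 to 0.396. Outside the 7 genes, the genes with the most similar profile were Cd24 (r = 0.947), Lig4 (0.929) and Rhag (0.921) for Cd79b, and Cd37 (0.946), Hbg1 (0.944) and Lig4 (0.943) for Cd72. For Cd40 they were Cd37 (0.898), Lig4 (0.894) and Vav1 (0.872), and for Iglc1 Lig4 (0.948), Plcg2 (0.937) and Syk (0.934). The list for Ighvl1 was Cxcl14 (0.944), Cma1 (0.940) and Cyfip2 (0.930), without a gene of the other lists. Rhag and Hbg1 belong to none of those lists either, so similar profiles were not confined to genes listed for B cells. Lig4 was among the 3 nearest of 4 genes. For Rag1 the highest was Sult2a1 (0.771), and for Cxcr5 the nearest profiles share its values at the floor.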

How the data were processed

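The deposited values are signal, which the authors computed with Affymetrix Microarray Suite 5.0 from perfect match and mismatch probes and scaled to a target of 500 on every array. A signal is thus a share of the array's total, and the number of arrays limits precision. Probe-level files and detection calls were not used here. Of 8799 probe sets 59 controls were left out. Between 12.2% and 20.1% of probe sets per array were below 20. Signals were floored at 20, and log2 values were fitted with limma 3.58.1 under R 4.3.3. One model had additive terms for time and age (10 residual degrees of freedom) and the other had age within phase of healing (4). Moderation followed the trend with signal. Symbols came from the platform annotation (7006 probe sets with 1 symbol, 308 with several, 1426 with none). Columns not used numbered 0. The fits were tested on simulated data. From each pathway list, up to 4 other genes with the largest called log2 change at any time were named, and for each gene the 3 with the highest Pearson r. Other genes were chosen after their values were seen. The 7 genes and all lists were chosen with earlier results of these data known.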

Additional observations from a re-analysis of the deposited data

Results flagged for a closer look

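The gamma-2a heavy chain was set apart by the test of whether the difference between older and young rats changed from the intact femur: it changed by -8.54 on the log2 scale at 1 and 2 weeks and by -8.25 at 4 and 6 weeks. The same test called probe sets of the kappa light chain. M12822cds_f_at gave -4.19 at 1 and 2 weeks and -2.83 at 4 and 6 weeks, M18528cds_f_at gave -3.63 and -2.75, and M18530cds_f_at, whose annotation names 2 kappa genes, gave -3.12 and -2.65 at the same phases. M18532cds_f_at (-3.15), annotated with the same 2 genes, and the IgM light chain (-2.87) were called at 1 and 2 weeks. In each of these the older rats had more signal than the young in the intact femur and the reverse or a smaller excess afterwards. Each intact femur is a single array of 2 pooled rats, so the whole set turns on 1 array of young and 1 of older rats. Cxcr5 was called in both phases (-0.16 and -0.16), with every fractured femur at the floor. These were 12 of the 52 such tests made over 26 probe sets.

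Among 78 groups of 6 arrays of one age, 4 had an array far from the others, and chance alone sets about 1 in 20 apart. They were Cxcr5 in adult and older rats (gap over range 1 in both, the intact femur being the only array above the floor) and Ighl11 in adult rats (0.902, highest at 6 weeks with 50.7) and in older rats (0.677, highest at 6 weeks with 106.2).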

How the results depend on the processing

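The counts over the 6 times and for 4 and 6 weeks against 1 and 2 weeks stayed within 1.5 times under every alternative run. Among comparisons with no fracture, a plain t-test of 3 arrays against 3 called 2 of the 7 genes at 3 days, 2 at 1 week, 1 at 2 weeks and 0 at 4 weeks, both at 0.005 unadjusted (in the methods the threshold of the array software's change call, not of a t-test) and after Benjamini-Hochberg, and a fit of only the 6 arrays compared called 1 at 1 week, 0 at 2 weeks and 0 at 4 weeks. At 4 weeks the count was 1, but of Ighvl1 in place of Cd40, with log2(signal + 50) or a mean signal of 200 or more, and 0 with a floor of 100, with the actin ratio or with no replicate block (no age term), 2 with median centring, and 0 to 3 without 1 age. At 6 weeks it was 1 with median centring or log2(signal + 50), and 0 to 1 without 1 age. For older against young rats it was 0 with a floor of 100, 1 with the actin ratio, and 0 to 2 without 1 time. For adult against young rats it was 0 with a floor of 100, 2 with log2(signal + 50), and 0 to 1 without 1 time. For older against young rats within a phase it was 2 at 1 and 2 weeks with a mean signal of 200 or more, and at 4 and 6 weeks 1 with a floor of 100, 1 with log2(signal + 50) and 2 with that filter, which kept 4 of the 7 genes. Signs turned only in uncalled changes. Without 1 age the log2 change ran between -0.71 and 0.22 for Cd72 at 4 weeks, and for Rag1 between -0.57 and 0.12 at 1 week, -0.73 and 0.25 at 2 weeks and -0.71 and 0.70 at 6 weeks. With the actin ratio it was 0.016 for Rag1 at 6 weeks. Leaving out Rag1 and Cxcr5, chosen after seeing the data, moved the count at 3 days to 5. The block here is age, and the cause of these shifts was not tested. Shares of all probe sets called are given for the main fits only, so the counts of the alternative fits are a description only.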
